A study of Caenorhabditis elegans with 2 samples.

Results

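The regions described here are 765 weak peaks from an ELT-3 experiment. They lie away from promoters, carry a GATA motif and come from 5659 peaks in the authors' pooled list. That list includes background peaks, so the regions need not be sites of ELT-3 binding. The regions were selected on 3 criteria, of which the first is a measured value. The peak had to be absent from the authors' list of peaks that passed a threshold on reproducibility, which kept the strongest 1262 peaks or 22.3% by pooled signal and left 4397 weaker ones. Its summit had to lie outside the promoter window of every protein-coding transcript, taken as 1000 bp before the start and 250 bp after it, which removed 1617 weaker peaks and left 2780. The sequence WGATAR, where W is A or T and R is A or G, had to lie on either strand within 50 bp of the summit, which 765 of the 2780 met (27.5%). These 765 peaks are called the members. The comparison classes were the 2015 weaker non-promoter peaks without the motif, the 354 thresholded non-promoter peaks with the motif (of 640 thresholded non-promoter peaks), and the 505 weaker promoter peaks with the motif.

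The peaks come from ChIP-seq (sequencing of DNA recovered by immunoprecipitation of chromatin) against ELT-3 in whole first-stage (L1) larvae of Caenorhabditis elegans strain OP75, in 1 group of 2 biological replicates. The strain carries the unc-119(ed3) III allele and the transgene wgIs75, from which ELT-3 is expressed with GFP and FLAG at its C-terminus. The larvae were of mixed sex, and the label names ELT-3 itself as the antibody target, so whether untagged ELT-3 was also recovered is unclear from the labels. All peaks share this genotype and stage, and no untagged or mutant strain was analysed here. Replicate 1 had 25325 listed peaks and replicate 2 had 26500, background peaks included, and peak lists give no read depth. Whole larvae were used, so a peak does not name the cells in which it was bound.

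GATA factors are zinc finger proteins that recognise short sites built around the letters GATA. In C. elegans, ELT-3 is a GATA factor of the epidermis, where related factors act earlier (ELT-1) or in the lateral seam cells (EGL-18, ELT-6), and other members of the family (ELT-2, ELT-7) act in the intestine. Because several of these proteins recognise nearly the same letters, a motif in a peak does not name the factor that uses it.

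The summit base with 50 bases to either side is printed for 9 members, 5' to 3' on the forward strand of ce11 (sequence from the RefSeq assembly WBcel235), with every WGATAR in capitals. A motif on the other strand appears as its reverse complement, so TGATAA then reads as the letters TTATCA. The first 5 are among the strongest members, and the centre of the nearest motif lies from 20.5 bp (snt-1) to 46.5 bp (F20B6.9) from their summits. The sites near cdh-7 (II:14838792-14838892, a cadherin gene), jmjd-3.1 (X:8567289-8567389, a histone H3 lysine 27 demethylase), snt-1 (II:6821894-6821994, a synaptotagmin) and F20B6.9 (X:4208634-4208734) are intergenic, and that of aakg-1 (III:12568328-12568428, a gamma subunit of the AMP-activated kinase) is intronic. The snt-1 site lies 10976 bp downstream of the nearest start, that of snt-1, and past the end of that gene. The next 2, intergenic near ptc-3 (II:2854950-2855050, a patched homologue) and somi-1 (V:13393495-13393595, a zinc finger protein), are members whose only motif is AGATAG and TGATAG, respectively. The last 2 show clustered motifs: 4 in an intron of jac-1 (IV:16015884-16015984, the p120 catenin of epithelial junctions) and an overlapping pair among 3 in the site near str-171 (V:15133968-15134068, a putative chemoreceptor).
cdh-7: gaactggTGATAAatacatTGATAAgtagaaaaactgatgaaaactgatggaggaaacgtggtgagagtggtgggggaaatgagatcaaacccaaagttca
jmjd-3.1: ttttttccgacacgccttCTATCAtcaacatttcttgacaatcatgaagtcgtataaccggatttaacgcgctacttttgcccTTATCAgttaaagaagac
snt-1: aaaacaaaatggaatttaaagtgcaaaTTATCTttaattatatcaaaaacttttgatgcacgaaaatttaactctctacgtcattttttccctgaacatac
F20B6.9: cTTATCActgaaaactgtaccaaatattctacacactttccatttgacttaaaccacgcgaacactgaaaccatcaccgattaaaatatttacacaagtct
aakg-1: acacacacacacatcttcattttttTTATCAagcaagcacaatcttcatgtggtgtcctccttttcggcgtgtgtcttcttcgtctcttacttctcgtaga
ptc-3: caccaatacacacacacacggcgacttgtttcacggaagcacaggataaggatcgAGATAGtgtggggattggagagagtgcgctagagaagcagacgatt
somi-1: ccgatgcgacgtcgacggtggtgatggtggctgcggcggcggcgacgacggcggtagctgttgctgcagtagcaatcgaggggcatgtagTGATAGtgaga
jac-1: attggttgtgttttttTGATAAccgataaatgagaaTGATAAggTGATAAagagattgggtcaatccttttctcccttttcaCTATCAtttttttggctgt
str-171: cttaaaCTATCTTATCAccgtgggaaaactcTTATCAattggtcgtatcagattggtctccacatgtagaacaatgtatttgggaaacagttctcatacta

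The members were weak peaks by construction. Their pooled signal, the strength that the authors' peak caller gave, on a scale the sources do not state, ran from 24.5 to 42.8 with a median of 28.6 (interquartile range 26.2 to 32.8). The −log10 of the authors' q-value, which is lower for a larger q-value, had a median of 0.172 and a maximum of 1.28. Its median was 2.04 in thresholded non-promoter peaks with a motif. All 765 members were 256 bp wide with the summit in the middle. In the pooled list their ranks ran from 1265 to 5656. At the strength limit, the members just inside were those of cdh-7 and scpl-1 (a phosphatase of the small CTD family), both with a signal of 42.8, and of jmjd-3.1 with 42.6. The thresholded non-promoter peaks with a motif just outside it were at cutl-21 with 42.9, and at C07A9.9 and B0310.2, both with 43. At the promoter limit, the members just inside had summits at −1002 bp from the start of esyt-2, −1003 bp from that of sav-1 and −1010 bp from that of pptr-2 (upstream is negative). Weaker peaks with a motif just outside it lay at −993 bp from the start of M106.3, −992 bp from that of pbo-6 and −991 bp from that of ceh-27. At the motif limit, 31 members had the centre of the nearest motif over 45 and up to 47.5 bp from the summit, and 25 weaker non-promoter peaks had one over 47.5 and up to 50 bp away, so that the motif ran past the window.

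Of the 765 members, 709 overlapped a peak in the list of replicate 1 and 671 a peak in that of replicate 2, by at least 1 bp. Both replicates had an overlapping peak for 616 members, replicate 1 alone for 93, replicate 2 alone for 55 and neither for 1, which lies in an intron of unc-5, a netrin receptor gene. These replicate lists, like the pooled list, include background peaks, and the replicate reads are part of the pooled signal. The overlaps are therefore a description. A narrower count took only the 5659 strongest peaks of each replicate, the size of the pooled list. By that count 166 members (21.7%) were found in both replicates and 128 in neither. Of all weaker peaks 18.5% were found in both. The share was 14.8% for the motif-free class, 25.9% for weaker promoter peaks with a motif and 96.3% for thresholded non-promoter peaks with a motif. The members' share thus lay close to that of weaker peaks in general and far below that of the thresholded class. The median signal of the overlapping peak was 15.9 in replicate 1 and 14 in replicate 2, with median ranks of 4640 and 4714. The summit of the replicate peak lay a median of 8 bp from the pooled summit in replicate 1 and 10 bp in replicate 2.

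Across the 616 members matched in both replicates, signal in replicate 1 and in replicate 2 had a Spearman's rho of −0.14. The members were chosen within a band of pooled signal, to which both replicates contribute, and in the thresholded class, which has no upper limit, rho was 0.37 over 353 peaks. Values of single strong members varied. The cdh-7 member had a signal of 15.5 in replicate 1 and 28.5 in replicate 2. The jmjd-3.1 member had 35.1 in replicate 1 and 12.4 in replicate 2. The snt-1 member had 21.4 and 21. Signals of the replicate lists were not put on a common scale. By rank within its list, the cdh-7 member stood at 5143 in replicate 1 and 583 in replicate 2. The jmjd-3.1 member stood at 484 and 7311, and the snt-1 member at 1730 and 1260. The member in an intron of daf-16 (I:10753847-10754102), the FOXO factor of insulin signalling, had 20.8 in replicate 1 and 19.8 in replicate 2. The intergenic member near let-418 (V:5823058-5823313), which codes for a Mi-2 chromatin remodeller, had 25.7 and 20.6. The member near mstr-1 was lopsided, with 10.6 in replicate 1, where it ranked 19119, and 31.6 in replicate 2, where it ranked 439.

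**Figure D1:**
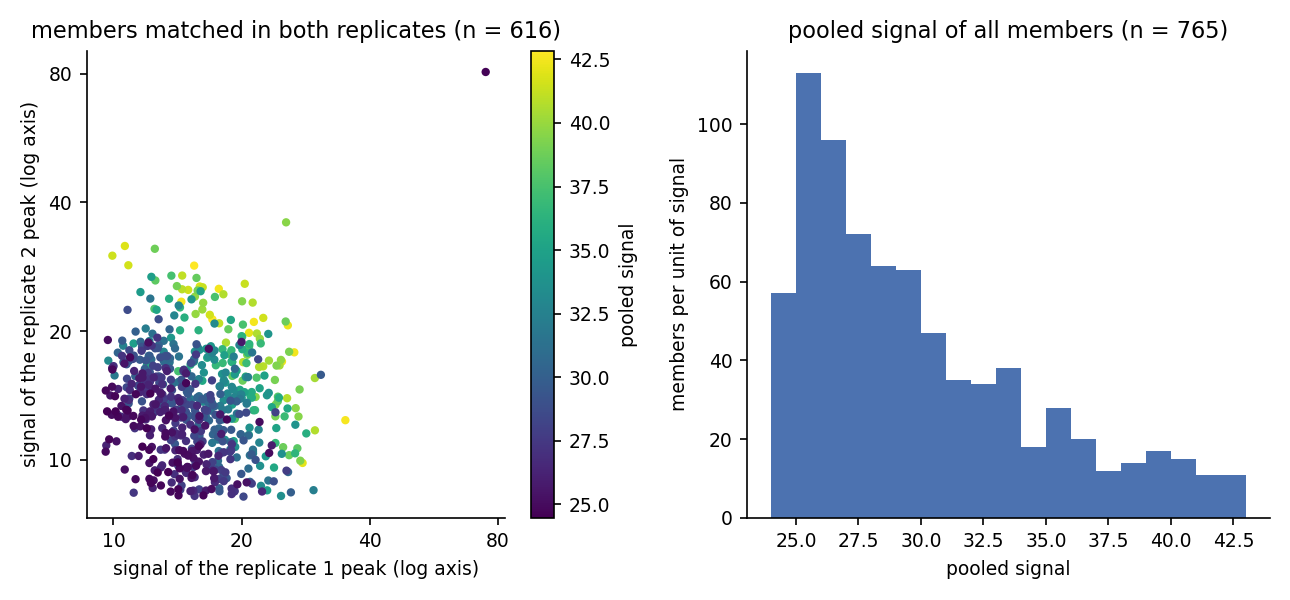
Left, signal of the overlapping peak in replicate 1 (x, log axis) and replicate 2 (y, log axis) for the 616 members with one in both, coloured by pooled signal. The single point at the upper right is the member near irld-18, whose replicate peaks belong to a thresholded neighbour. Right, number of members by pooled signal for all 765, which fall off from 24.5 to 42.8.

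The point far from the others is the member near irld-18 (IV:14594458-14594713). Its pooled signal was 24.6, while the replicate peaks that overlap it had signals of 74.9 and 80.8 and ranked 38 and 22. Its summit lies 205 bp from that of a thresholded peak, the shortest such distance among the members, and these replicate peaks belong to that neighbour. A second member, near W06H8.6 (V:6229642-6229897, pooled signal 39.6), lies 209 bp from a thresholded summit. These are the 2 members that overlap a thresholded peak.

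The remaining genes of the 20 strongest members have varied roles. Besides those already named, they are cysl-2 (a cysteine synthase homologue), tub-2 (a tubby family gene), pamn-1 (a peptide amidation enzyme), mup-4 (a transmembrane protein of the structures that anchor the epidermis to muscle and cuticle), ghi-1, T09B4.8, C36E8.4, Y48C3A.5 and F41E6.12. Of the 20, the mup-4 member (III:7490079-7490334) was the weakest, with a pooled signal of 41.3, and it had 20.4 in replicate 1 and 25.8 in replicate 2.

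The motif was more frequent at the summits of weaker non-promoter peaks than beside them, by a margin that depended on strength. Of the 2780 peaks, 27.5% had it in the 50 bp to either side of the summit (95% Wilson interval 25.9 to 29.2%). Windows of the same length centred 500 bp to the left and to the right of the summit held it in 21.4% and 20.7%. These windows were not matched for composition. The median share of A and T was 61.4% around the members' summits and 65.1% from 200 to 1000 bp away. For the motif-free class it was 58.4% and 64.6%, and its part in the motif shares was not tested. In thresholded non-promoter peaks the shares were 55.3% at the summit and 24.8% and 21.4% beside it. The motif was part of the rule, so these shares are given without a test. When the 2780 peaks were put in 5 strength groups of 556, the share at the summit was 37.1% in the strongest group, then 29, 24.3, 24.5 and 22.8% in the weakest. The share beside the summit was 24.4, 20.6, 19.7, 19.9 and 20.6%. The groups held 206, 161, 135, 136 and 127 members from the strongest down.

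**Figure D2:**
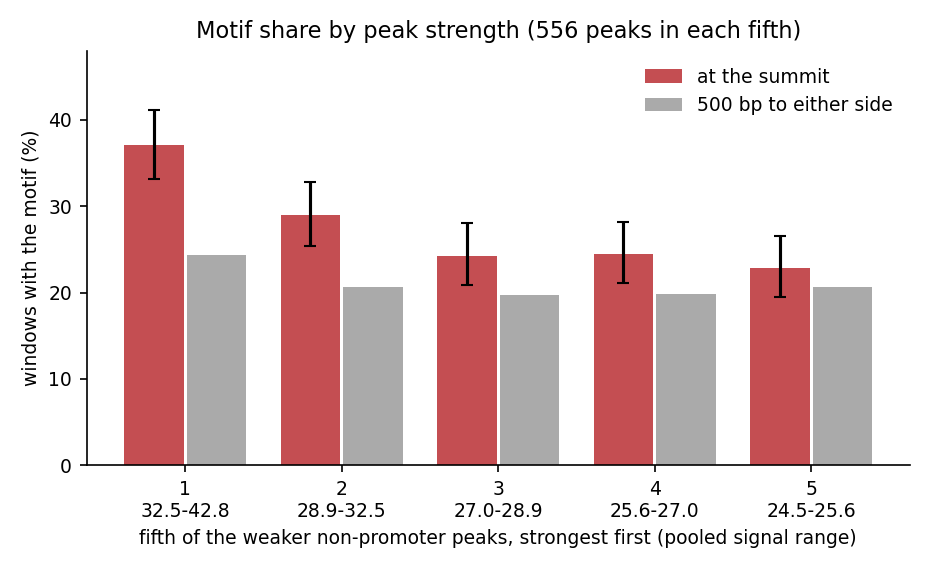
Share of windows with WGATAR, 50 bp to either side of their centre, (y, %) at the summit (red, 95% Wilson intervals) and 500 bp to either side (grey) for the 2780 weaker non-promoter peaks in 5 groups of 556 by pooled signal (x, strongest first). The red bar falls from 37.1% to 22.8% while the grey bar goes from 24.4% to 20.6%.

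Among peaks with a motif, members had fewer motifs than thresholded peaks. The count used the search and window of the rule, by which 27.5% of weaker and 55.3% of thresholded non-promoter peaks had any motif. The comparison is therefore not independent of those untested shares. Of the 765 members, 568 had 1 motif, 158 had 2, 33 had 3 and 6 had 4, for 1007 motifs in all. Members with 2 or more made up 25.8% (95% interval 22.8 to 29%), against 46% (40.9 to 51.3%) of thresholded non-promoter peaks with a motif, an odds ratio of 0.41 (two-sided Fisher's exact test, p = 3.55e-10 adjusted over 12 tests by Benjamini-Hochberg). In weaker promoter peaks with a motif the share was 28.7% (24.9 to 32.8%), and the difference from the members did not pass (odds ratio 0.861, Fisher's exact, adjusted p = 0.421). Among the members the share with 2 or more was 36.9% in the strongest of the 5 strength groups and 18.9% in the weakest. Fisher's exact tests take peaks as independent units and describe these peak lists, not a sample of worm populations. Neighbouring motifs in 1 member lay on the same strand in 65.7% of 242 adjacent pairs, with a median gap of 13 bp, and in thresholded peaks in 65% of 237 pairs, with a median gap of 12 bp.

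TGATAA was the leading form. It made up 49.9% of the members' 1007 motifs, against 42.3% of the 381 motifs beside them and 55.3% of the 591 motifs in thresholded non-promoter peaks. AGATAA made up 21.8%, TGATAG 14.2% and AGATAG 14.1% of the members' motifs. At least 1 TGATAA was present in 422 members (55.2%, 51.6 to 58.7%) and in 68.6% (63.6 to 73.3%) of thresholded non-promoter peaks with a motif (odds ratio 0.562, Fisher's exact test, adjusted p = 1.21e-04). The measure uses the rule's motif search, and a peak with more motifs has more places to hold TGATAA. Motifs averaged 1.32 per member and 1.67 per thresholded non-promoter peak with a motif. The call against thresholded peaks was lost when only peaks with exactly 1 motif were kept, an alternative chosen after seeing the data. TGATAA was then present in 48.8% of 568 members and 53.9% of 191 thresholded peaks (odds ratio 0.813, Fisher's exact, adjusted p = 0.483). In weaker promoter peaks the share was 52.9%, and the difference from the members did not pass (odds ratio 1.10, Fisher's exact, adjusted p = 0.606).

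The base next to the motif also differed. A G directly after WGATAR, read on the strand of the nearest motif, followed in 28.5% of members (25.4 to 31.8%) and in 43.8% (38.7 to 49.0%) of thresholded non-promoter peaks with a motif. The odds ratio was 0.512 (Fisher's exact test, p = 1.02e-06, adjusted over 5 tests that were chosen after seeing the data). In windows beside the members the share was 18.9%. Weaker promoter peaks had 34.5% (30.4 to 38.7%), and the difference from the members (odds ratio 0.758, Fisher's exact, adjusted p = 0.0256) was lost in 6 of 13 alternatives.

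The centre of the nearest motif was a median of 19.5 bp from the summit in members and 22.5 bp from the centre of the windows beside them. It lay within 10 bp in 29.5% of members (26.4 to 32.9%), in 35.6% (30.8 to 40.7%) of thresholded non-promoter peaks and in 25.1% (21.6 to 29.1%) of weaker promoter peaks. Neither difference passed the test (odds ratios 0.759 and 1.25, Fisher's exact, adjusted p = 0.108 and 0.192). In the windows beside the members that held a motif, 23.5% had it within 10 bp. A WGATAR in at least 1 of the windows beside the summit was found for 38.2% of members and 37.5% of the motif-free class (odds ratio 1.03, Fisher's exact, adjusted p = 0.828).

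**Figure D3:**
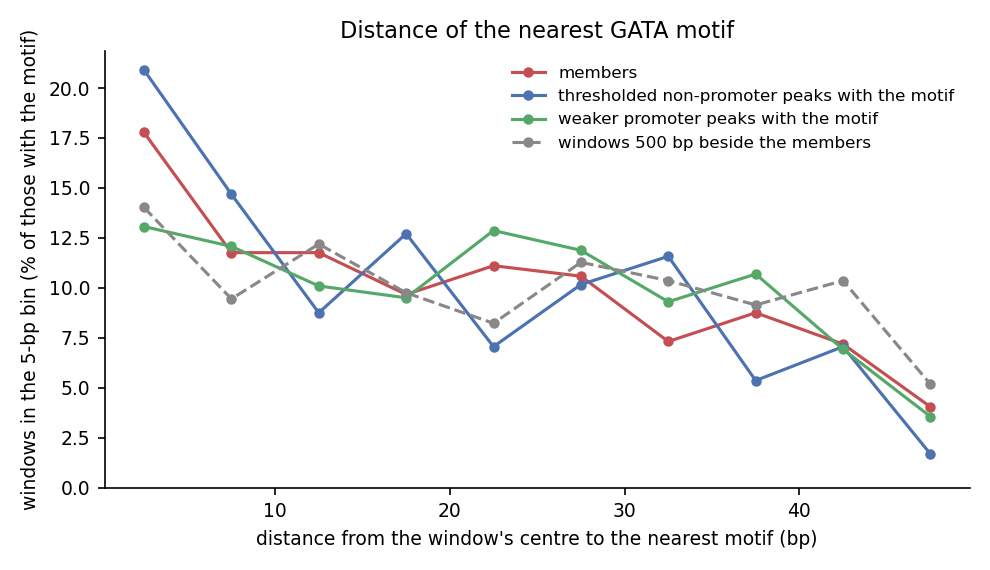
Distance from the summit, or from the centre of a window 500 bp beside it, to the centre of the nearest WGATAR (x, 5-bp bins) as a share of the windows with a motif (y, %). Members begin at 17.8% in the bin nearest the summit, thresholded peaks at 20.9%, weaker promoter peaks at 13.1% and windows beside the members at 14%.

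Other short words were counted in the same windows on both strands. GAGAGA, the letters bound by GAGA-type factors in flies, was present in 14.2% of members and in 5.36% and 5.62% of the windows to their left and right. It was present in 11% of the motif-free class, 25.1% of thresholded non-promoter peaks with a motif and 21% of weaker promoter peaks with a motif. A run of 8 T or A went the other way, with 4.44% at the members' summits and 12.7% and 11.5% beside them. The E-box CACGTG (3.14% of members), the AP-1 site TGACTCA (1.96%), the forkhead site TGTTTAC (1.18%) and the nuclear receptor site AGGTCA (3.27%) were rare. No test was made for these words.

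The members lay mostly between genes and in introns. Their summits were intergenic in 329 cases (43%), in an intron in 233 (30.5%), in a coding exon in 154 (20.1%), in a gene of another type in 26 (3.40%), in a 3' UTR in 20 (2.61%) and in a 5' UTR in 3. Coding exons held 34.5% (32.5 to 36.6%) of the motif-free class and 2.26% (1.15 to 4.40%) of thresholded non-promoter peaks with a motif, against 20.1% (17.4 to 23.1%) of members. Both differences passed Fisher's exact test (odds ratios 0.478 and 10.9, p = 1.17e-13 and 4.80e-18, adjusted over the 5 tests chosen after seeing the data). The first sets peaks with the motif against peaks without it, so it restates the motif share by annotation given below. The intron share was 30.5% in members, 28.4% in the motif-free class (odds ratio 1.10, Fisher's exact, adjusted p = 0.455) and 37.9% in the thresholded class (odds ratio 0.719, Fisher's exact, adjusted p = 0.0495). The latter call was lost in 7 of 13 alternatives. When only intron and intergenic summits were compared its odds ratio was 0.999.

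The motif share at the summit also varied with annotation. For coding exons this is the comparison with the motif-free class read the other way. The rule used the motif, so no further test was made. Among weaker non-promoter peaks with a summit in a coding exon 18.1% had the motif (15.7 to 20.8%), and 19.8% of the windows beside them did. For intergenic summits the shares were 37.5% (34.3 to 40.7%) and 21.6%, and for introns 28.9% (25.9 to 32.1%) and 21.2%. For genes of another type they were 17.9% and 26.6% over 145 peaks, for 3' UTRs 23.8% and 15.5% over 84 peaks, and for 5' UTRs 17.6% and 26.5% over 17 peaks. The 154 members in coding exons had a median signal of 26.9, against 29.6 for the intergenic ones. Of the coding exon members, 10.4% were among the 5659 strongest peaks of both replicates, against 19.3% of intron members and 28.9% of intergenic ones. The median share of A and T around the summit of weaker non-promoter peaks was 57.4% in coding exons, 60.4% in introns and 61.4% in intergenic sequence, and its part in the motif shares was not tested.

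**Figure D4:**
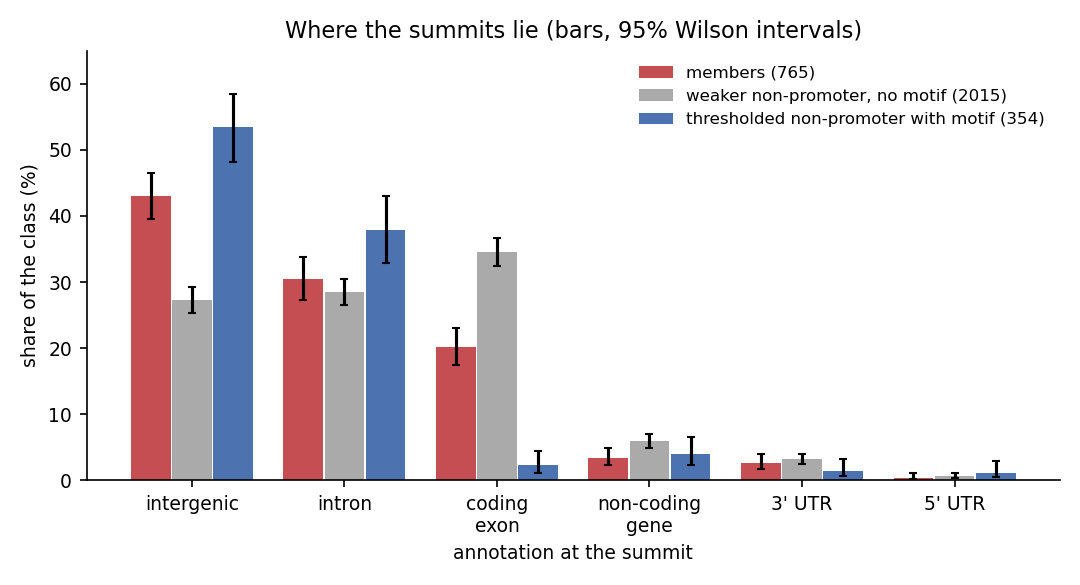
Share of each class (y, %) by the annotation at the summit (x), for members (red), weaker non-promoter peaks without the motif (grey) and thresholded non-promoter peaks with it (blue), with 95% Wilson intervals. Members lie between the other classes in intergenic sequence (43%) and coding exons (20.1%).

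Members were more often close to a thresholded peak than motif-free peaks were. A thresholded summit lay within 1000 bp of 65 members (8.50%, 6.72 to 10.7%) and of 93 motif-free peaks (4.62%, 3.78 to 5.62%), with an odds ratio of 1.92 (Fisher's exact test, adjusted p = 6.07e-04). These classes differ by the motif, and the thresholded list was also part of the rule. The comparison therefore restates a motif share near thresholded peaks and is not separate support. With the classes rebuilt from the list of replicate 2 alone, the odds ratio was 1.10 and the call was lost (Fisher's exact, adjusted p = 0.735). By annotation the shares were 12.2% (9.06 to 16.1%) of intergenic members and 7.47% (5.55 to 9.97%) of intergenic motif-free peaks. In introns they were 7.73% (4.94 to 11.9%) and 4.71% (3.26 to 6.77%), and in coding exons 1.95% and 1.58%. The intervals of the classes overlapped within each annotation. The median distance to a thresholded summit was 17289 bp for members and 24143 bp for motif-free peaks. Among themselves the members were spread out, with 18 of them within 1000 bp of another and a median distance of 40340 bp to the nearest one.

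By chromosome, the members ranged from 5.64 per Mb on V to 9.93 per Mb on X. The X chromosome held 23% of members, 23.5% of the motif-free class (odds ratio 0.974, Fisher's exact, adjusted p = 0.841) and 22.0% of the thresholded class (odds ratio 1.06, Fisher's exact, adjusted p = 0.828). Neither difference passed the threshold. Chromosome I held 15.9% of members and 22.9% of the motif-free class (odds ratio 0.638, Fisher's exact, p = 5.79e-05, adjusted over the 5 tests chosen after seeing the data). These classes differ by the motif, which the rule used, so the comparison restates a motif share. That share was 20.9% of weaker non-promoter peaks on I and from 27.1% (X) to 32.9% (IV) on the others. With the list of replicate 1 alone the odds ratio was 0.827 and the call was lost (Fisher's exact, adjusted p = 0.0809). On that chromosome the motif-free class reached 30.7 peaks per Mb, against 15 to 26.7 on the others. Around elt-3 itself, on X, 1 member lay within 50000 bp. It fell in a coding exon of meg-1 (X:13927860-13928115), a P granule protein gene, with a pooled signal of 25.9, 23.6 in replicate 1 and 10.8 in replicate 2, and its summit was 694 bp from a thresholded one. No member was assigned to elt-3 or to unc-119.

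Each member was assigned to the protein-coding gene that holds its summit (410 members) or else to the gene with the nearest protein-coding start (355 members), which need not be the gene it acts on. This gave 696 genes, or 3.48% of the 19973 protein-coding genes. A single member was assigned to all but 63 of them. The genes that hold a member were long, with a median of 5673 bp against 2027 bp for all protein-coding genes. The share of genes with a member was higher for longer genes, from 1.58% of genes under 2000 bp to 3.44% of those from 2000 to 5000 bp, 7.11% of those from 5000 to 10000 bp and 14.4% of those of 10000 bp or more. Of the 696 genes, 174 (25%) also had a thresholded peak assigned by the same rule, against 5.2% of all protein-coding genes. Thresholded peaks in promoters count here, while the members exclude promoters. These shares were not matched for gene length, which was greater in genes that hold a member, and the part of length was not tested. The gene with most members was pkg-2, a cGMP-dependent protein kinase gene, with 4 in its introns. Their pooled signals were 40.4, 36.3, 35.9 and 26.5, and the signals in replicate 1 and replicate 2 were 29.7 and 15.5 for the strongest and 13 and 9.70 for the weakest. All 4 pkg-2 members had a peak in both replicates. The genes dmd-6 (a DM-domain factor), rme-8 (a J-domain protein of endocytosis), F36G3.1 and R02D5.1 had 3 members each. The 3 members near dmd-6 were intergenic and each lay 511 to 755 bp from a thresholded summit, while those of rme-8 were at least 62632 bp from any.

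Among lists of the epidermis and its attachments, the share of genes with a member varied. It ran from 1.69% of cuticle collagen genes to 46.2% of hemidesmosome and junction genes. Among 26 genes of hemidesmosomes and junctions, 12 had a member (46.2%), with a median gene length of 10072 bp. The share was 3.48% of all protein-coding genes and 14.4% of those of 10000 bp or more. The strongest were those of mup-4, of jac-1 (40.8 pooled, 25.6 in replicate 1 and 13.9 in replicate 2) and of let-413, the Scribble homologue (33.6 pooled, 15.5 and 17.9). The other genes with a member included hmr-1 (E-cadherin), ajm-1 and dlg-1 of the apical junction, and vab-10 and vab-19 of the hemidesmosome, with pooled signals of 24.7 to 26.9. These lie near the lowest pooled signal of any member, 24.5. Of 15 epidermal and seam transcription factors, 4 had a member (26.7%), with a median gene length of 5472 bp. The member in lin-26, a zinc finger gene needed for epidermal fate, had a pooled signal of 32.2, with 11.9 in replicate 1 and 20.3 in replicate 2. That of nhr-23, a nuclear receptor of moulting, had 30.2 (11.4 and 14.9). The GATA factor gene egl-18 had 2 members, of which the stronger had 29.2, with 21.9 in replicate 1 and no overlapping peak in replicate 2. The fourth gene, nhr-25 (a nuclear receptor of the Ftz-F1 type), had 27.1, with no overlapping peak in replicate 1, and was named after its values were seen. Of the 11 GATA factor genes, egl-18 was the only one with a member (9.09%).

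Of 22 epidermal antimicrobial peptide genes, 3 had a member (13.6%): nlp-24 (39.9 pooled, 16.3 in replicate 1 and 23.3 in replicate 2), nlp-33 (32.7, 19.8 and 18.6) and nlp-29 (26.8, with 16.5 in replicate 2 and no overlapping peak in replicate 1). These genes are short, with a median of 453 bp, and lie in clusters, so the nearest start may not be the one served. Of 178 cuticle collagen genes, 3 had a member (col-139, sqt-1 and col-88), or 1.69%, with a median gene length of 1225 bp. Of 24 moulting and cuticle assembly genes, with a median length of 5149 bp, 3 did (12.5%): bli-4 (a kexin-like protease, 31), acn-1 (an ACE-like protein, 27.3) and ptr-4 (a patched-related protein, 25.7). Of 26 genes for patched-related membrane proteins, with a median length of 6153 bp, 5 did (19.2%), led by ptr-14 (40.6, with 18.4 in replicate 1 and 18.8 in replicate 2), ptc-3 (37.7, with 21.7 and 15.6) and ptr-2 (29.2, with 27.5 and no overlapping peak in replicate 2). Of 59 hedgehog-related genes, hog-1 alone had a member (1.69%, pooled signal 40.7).

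The 25 axon guidance and migration genes had a median length of 11667 bp. Over all protein-coding genes 3.48% had a member, and 14.4% of those of 10000 bp or more did. On this list 8 genes had a member (32%). They were led by efn-2, an ephrin (33.2 pooled, 9.73 in replicate 1 and 17.1 in replicate 2), sax-3, the Robo receptor (31.6, 13.8 and 18.7), and unc-53, a cytoskeletal regulator of migration (31.4, 13.1 and 15). Of 23 Wnt pathway genes, with a median length of 4464 bp, 3 did (13%): bar-1 (a beta-catenin, 32.6), lin-18 (the Ryk receptor, 27.7) and cfz-2 (a Frizzled, 25.8). Of 88 homeobox genes, with a median length of 3323 bp, 4 did (4.55%), led by ceh-45 (35.1), the labial-type Hox gene ceh-13 (27.2) and the LIM homeobox gene lin-11 (25.7). Of 274 nuclear hormone receptor genes, 22 did (8.03%), with a median gene length of 2320 bp, led by nhr-31 (39.5), nhr-46 (36.2) and nhr-34 (35.3).

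Among lists of other tissues, 2 of 25 neuron marker genes (8%) had a member, snt-1 and cha-1 (choline acetyltransferase, 28.6). The strongest snt-1 member was assigned by the nearest start only, 10976 bp downstream of it, and the gene is 5471 bp long. Of 23 body wall muscle markers, 2 had a member (8.7%), unc-89 (the obscurin homologue, 33.9) and unc-68 (the ryanodine receptor, 27.9). Of 24 intestine markers, 1 had a member (4.17%), the intermediate filament gene ifb-2 (26.3), and none of the 18 pharynx markers or 24 germline markers did. Lists this short cannot tell an absence from the 3.48% of all protein-coding genes. Median gene lengths were 5048 bp for the neuron, 4800 bp for the muscle, 3650 bp for the pharynx, 2554 bp for the intestine and 2595 bp for the germline list. Of 1300 chemoreceptor genes, 17 had a member (1.31%), led by str-171 (42.1), srw-62 (32.9) and srv-7 (29.3). Of 81 ribosomal protein genes, rps-28 alone had a member (1.23%, pooled signal 37.6), and none of the 74 cytochrome P450 genes did. Few members do not mean few peaks here. A thresholded peak, promoters included, was assigned to 18 of the ribosomal protein and 10 of the P450 genes, against 5.2% of all protein-coding genes. The lists were not tested against each other, and the higher share in longer genes bears on every comparison with 3.48%.

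**Figure D5:**
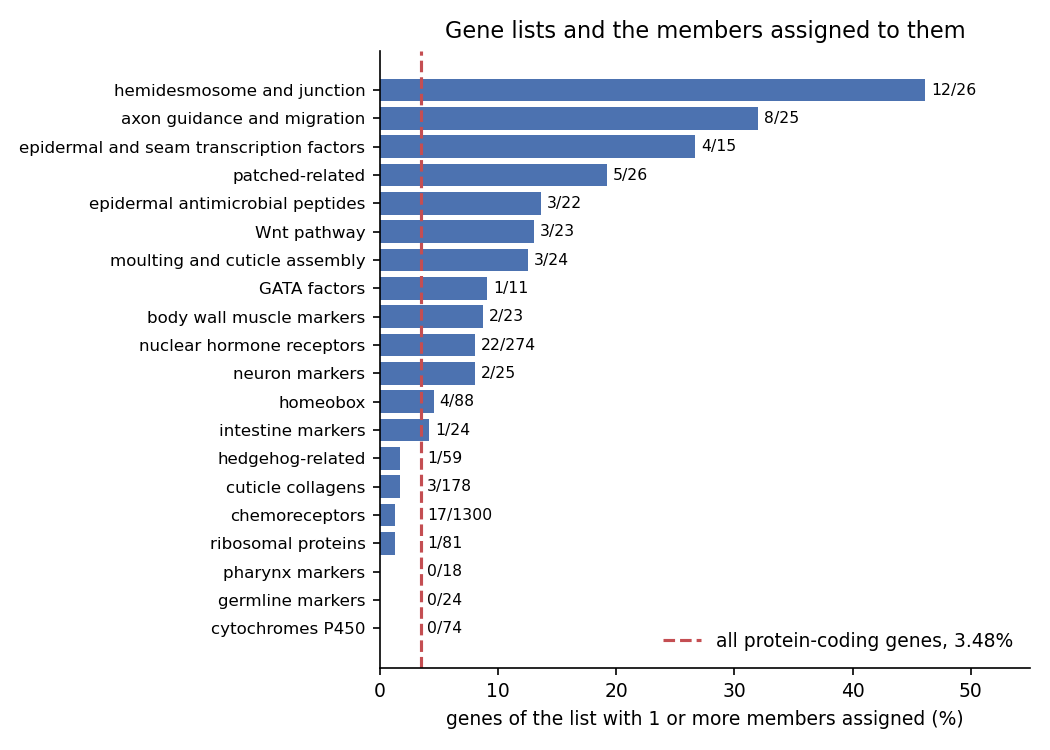
Share of the genes of each list with 1 or more members assigned (x, %), with the number of genes beside each bar. The dashed line marks 3.48%, the share of all protein-coding genes. The hemidesmosome and junction list leads with 12 of 26, and the median gene length differs between lists.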

How the data were processed

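Peaks of ELT-3 ChIP-seq in 2 biological replicates (1 group, per the labels) were analysed. According to the deposited file lists, the authors called peaks with background on the reads of each replicate and on both together, against control alignments, and kept pooled peaks by an irreproducible discovery rate threshold. Which aligner and caller were used is not given in the sources used here, and the control experiment was not analysed here. The signal in the authors' lists is the caller's strength of a peak, and served to rank and describe peaks within a list. The authors' −log10 q-value is given as deposited. The ce10 copies of the lists were not used. Read depth is unknown, so intervals cover counting error over peaks only.

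Summits were placed on ce11 (WBcel235; RefSeq sequence, Ensembl release 115 annotation), 1-based, and put in the first that held of promoter, UTR, coding exon, intron, gene of another type and intergenic sequence. A replicate's value was that of the overlapping peak with the nearest summit. Peak classes were compared by Fisher's exact test, two-sided, with Benjamini-Hochberg adjustment over 12 tests and a threshold of 0.05, and 5 further tests were chosen after seeing the data. Alternatives were other motifs, motif windows and promoter windows, all gene types, weaker peaks without overlap, the stronger part of the weaker peaks, leaving out the surroundings of elt-3 and each replicate alone. The members, gene lists and tests were chosen with earlier results of these data known. Named are the genes of the 20 strongest members, the 3 genes of each of 20 lists with the strongest member, the 5 genes with most members, elt-3, unc-119 and the members at each limit. Sequences were drawn from intron and intergenic members, chromosome I left out. The members of irld-18, W06H8.6, unc-5, meg-1 and nhr-25 and the further junction genes were named after their values were seen. Software was Python 3.11.15 with scipy 1.17.1, pandas 2.3.3, numpy 2.4.6 and matplotlib 3.10.9, and the motif search and the tests were tested on simulated data.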

Additional observations from a re-analysis of the deposited data

How the results depend on the processing

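The lower share of members with 2 or more motifs and with a G after the motif than in thresholded peaks, and both differences in coding exons, kept their direction and passed in every alternative that gave a value. The motif count and the coding exon difference from the motif-free class rest on the rule's motif search, so they are not separate support. The number of members was 437 with a motif window of 25 bp, 1257 with 100 bp, 422 with TGATAA alone and 410 in the stronger part of the weaker peaks, against 765. The values that follow are odds ratios, and why a call changed was not tested. The lower TGATAA share than in thresholded peaks did not pass with the 25 bp window (0.683), in the stronger peaks (0.692) or with exactly 1 motif (0.813). The lower intron share than in thresholded peaks did not pass with the 25 bp window (0.74), TGATAA alone (0.702), the promoter window of 2000 and 500 bp (0.746), the stronger peaks (0.737), without peaks within 50 kb of elt-3 (0.725) or over introns and intergenic sequence only (0.999). The G share against weaker promoter peaks did not pass with C also allowed as the first base (0.827), the promoter window of 500 and 100 bp (0.767), starts of all gene types (0.803), the stronger peaks (0.821) or exactly 1 motif (0.822).

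Some differences passed only in an alternative. The central motif against thresholded peaks did so with the 100 bp window (0.593), C as first base (0.707) and the promoter window of 500 and 100 bp (0.718), and against weaker promoter peaks in the stronger peaks (1.56). The intron share against the motif-free class did so with the 100 bp window (1.28) and all gene types (1.3), and it turned to 0.679 and passed over introns and intergenic sequence only. Differences that crossed 1 without passing in either analysis were the X share against the motif-free class, with the 100 bp window (1.14), C as first base (1.01), the promoter window of 500 and 100 bp (1.04) and the stronger peaks (1.15); the X share against thresholded peaks, with the 25 bp window (0.846), C as first base (0.983) and the promoter window of 2000 and 500 bp (0.974); the motif beside the summit, with the 25 bp window (0.975), C as first base (0.978), the promoter window of 2000 and 500 bp (0.954) and the stronger peaks (0.926); the TGATAA share against weaker promoter peaks with the 100 bp window (0.974); and 2 or more motifs against weaker promoter peaks with TGATAA alone (1.02).

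With the classes rebuilt from 1 replicate's list, the 1262 strongest peaks and those ranked from there to 5659, the odds ratios ran over 1.1 to 1.95 for closeness to a thresholded peak, 0.764 to 0.827 for chromosome I, 0.69 to 0.885 for introns against thresholded peaks, 0.732 to 0.898 for the G against weaker promoter peaks, 0.98 to 1.08 and 0.895 to 1.2 for X, 1.15 to 1.26 for the motif beside the summit (which passed in the list of replicate 2) and 0.887 to 1.06 for the central motif against weaker promoter peaks. Restriction to introns and intergenic sequence, to exactly 1 motif and the 5 further tests were chosen after seeing the data. No paired analysis was possible because there is 1 group. Peak lists carry no reads, so the depth behind a weak peak is unknown.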
